A study of Mus musculus with 8 samples.

Results

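The genes for mitochondrial ribosomal proteins were followed in the outflow tract (OFT) of mouse embryos, the vessel through which the embryonic heart empties and from which the arterial valves and the septum between the great arteries form. Members were all genes of the expression table whose symbol starts with Mrpl or Mrps and a digit, which gave 79 of 14608 genes, 49 named for the large subunit and 30 for the small subunit. The RNA-seq data are 8 OFT libraries of embryonic day 11.5. The sample labels assign 4 to control and 4 to Mib1V943F/+ Gata6STOP/+, and the libraries labelled so are here called mutant. By their label, mutant embryos carried a missense allele of Mib1, a ubiquitin ligase needed for NOTCH ligands to signal, and a stop allele of Gata6, a transcription factor of the developing heart, each in a single copy. The alleles belong to mouse strains and are not limited to a cell type by Cre, and control embryos are given as control in the genotype label and as WT in the sample titles. The study describes its Mib1 and Gata6 mutations as combined in trans, on different copies of the chromosome. Each library came from pooled embryos, 3 individuals per pool by the labels. The methods of the study describe the pooling differently, so the number of embryos behind a library is uncertain. Since OFT tissue is a mixture of myocardium, cushion mesenchyme, endocardium, smooth muscle precursors and neural crest derivatives, fewer cells of a type and less RNA per cell cannot be told apart in these data.

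Mitochondria translate a handful of proteins, all of them parts of the respiratory chain or of the ATP synthase, from messengers encoded by mitochondrial DNA (mtDNA). They use a ribosome of their own, in which the ribosomal RNAs come from mtDNA and every protein is encoded in the nucleus, made in the cytosol and imported. The small subunit binds the messenger and holds the decoding site. The large subunit forms the peptide bond and is docked at the inner membrane, where its products are inserted. Many of its proteins descend from bacterial ribosomal proteins, and others are found only in mitochondria. Cardiac muscle is rich in mitochondria, and human mutations in several of these genes cause cardiomyopathy.

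The reads on listed genes numbered between 10669420 (control replicate 2) and 30469165 (mutant replicate 3), and the values are CPM, reads scaled to the size of the library, on which 1 read is worth 0.0325 to 0.0948 CPM. Gata6 RNA had 236.5, 279.3, 270.9 and 260.7 CPM in control and 213.2, 284.1, 276.5 and 223.6 CPM in mutant replicates, so that mutant replicate 2 lay above all controls. The log2 fold change was -0.08 (95% interval -0.29 to 0.14, adjusted p = 0.752 in limma). A stop allele that gave no RNA would lower the level by about 1 on this scale, and the interval excludes that size. Gata6 RNA in these libraries thus goes against such a loss and does not bear out the labels. The study reports quantitative PCR in these mutants, with Gata6 RNA reduced to the level predicted for the genotype. The RNA-seq values differ from that report, and the reason was not tested. Mib1 RNA, which a missense allele need not change, did not separate the groups either (0.07, adjusted p = 0.746). Within these libraries, the directions given for mutant therefore rest on the labels alone. Control replicate 2, the shallowest library, and mutant replicate 2 stood apart in how their values followed GC content. Over all genes, limma left 0 past an adjusted p of 0.05, with 796 genes higher and 967 lower in the mutant libraries at an unadjusted p under 0.05. The likelihood ratio test of edgeR, run on the reads behind the CPM values, called 107 genes and DESeq2 called 194. Markers of the cell types of the OFT were present, with all 10 cardiomyocyte, 6 cushion mesenchyme, 7 endothelial and 4 smooth muscle markers in the table and at 0 in no library. Of the other markers, 4 of 6 for neural crest and its neurons and 1 of 5 for pharyngeal endoderm were listed.

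All 78 protein-coding genes on a list of mitochondrial ribosomal proteins with such names were in the table, together with 1 pseudogene, Mrps36-ps1. The genes lie on 17 chromosomes, with at most 11 on any of them, so they do not form a cluster. The pseudogene was close to the detection limit, with a mean of 1.06 CPM and 0 reads in control replicate 4, and reads of its parent Mrps36 could be assigned to it, so its values are uncertain. The mean level of a member over the 8 libraries ran up to 94.99 CPM for Mrpl12, with a median of 34.5 CPM. Some members overlap another listed gene on the genome, 6 of them on the same strand and 19 on the other strand. Among them are Mrpl46 and Mrps11, which overlap each other, and Mrpl43, which overlaps the mtDNA helicase gene Twnk. The libraries were made with a strand-specific kit, but the strand setting of the counting is not given in the sources used here.

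Levels between genes were compared per kilobase of exon, as CPM per kb averaged over the 8 libraries. The median level was 15.6 CPM per kb, against 5.76 for all genes, and the members spanned 3.35 to 62.0. The order was led by Mrpl12, a protein of the flexible stalk that recruits translation factors, with 67.3 ± 4.43 CPM per kb in control and 56.7 ± 0.729 in mutant libraries (SD, n = 4). It was followed by Mrps21, a small subunit protein of bacterial origin, at 54.7 CPM per kb, and by Mrpl34, a short protein of the large subunit, at 48.7. At the other end stood Mrps35 at 3.995, the pseudogene at 3.46 and Mrps10 at 3.35 CPM per kb. Levels of the members of the large subunit (median 16.9 CPM per kb) and of the small subunit (median 11.4) overlapped over nearly all of their range. The length used matters at both ends of this order. With the longest transcript in place of all exons, Mrps21 stood first at 82.8 CPM per kb and Mrpl12 followed at 72.2. The lowest were then Mrpl17 at 5.95, Mrps25 at 4.75 and the pseudogene at 3.46, without Mrps35 and Mrps10.

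**Figure D1:**
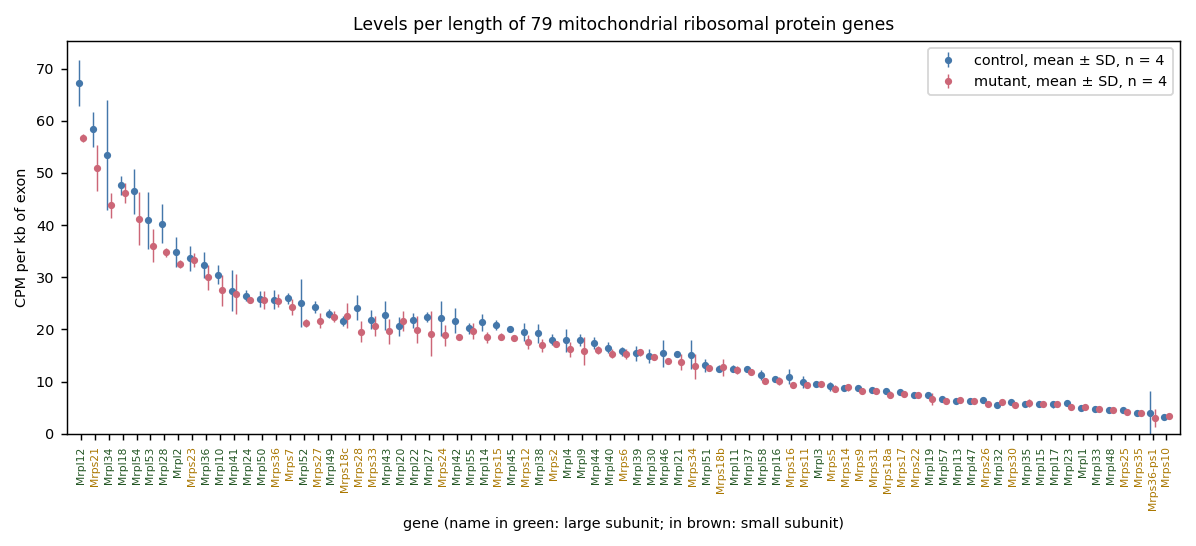
Level of each of the 79 genes in CPM per kb of exon (vertical axis), in descending order of the mean over 8 libraries, with mean and SD of the 4 control (blue) and 4 mutant (red) libraries. Levels run from 62.0 for Mrpl12 to 3.35 for Mrps10, and the spread within a group is small beside the range between genes.

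The question of the comparison is whether the double heterozygous genotype changed the RNA for the mitochondrial ribosome in the OFT. No member passed an adjusted p of 0.05 in limma, where the share called among all genes was also 0%. The smallest adjusted p was 0.240, for Mrpl12. Of the 79 members, 64 had a log2 fold change (mutant minus control) below 0, against 49.6% of all genes, and the median was -0.09 against 0.00 for all genes, a level 6.15% below control. Fold changes ran from -0.30 for Mrps28 to 0.13 for Mrps10. At an unadjusted p under 0.05, 11 members were lower in mutant libraries, or 13.9% of the members against 6.62% of all genes. By the same measure 0 members were higher, against 5.45% of all genes. The 11 lower members are not calls, since each of them has an adjusted p of at least 0.240.

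The edgeR likelihood ratio test called 0 members (0.732% of all genes), and DESeq2 called 1, Mrpl12, with an adjusted p of 0.033 (1.54% of the genes to which it gave one). For Mrpl12 the adjusted p was 0.098 in the likelihood ratio test. The values of 7 members did not overlap between the groups and were lower in all mutant libraries, where 3.9% of all genes did so. Those of 1 member, Mrpl32, were higher in all mutant libraries, against 3.2% of all genes. The 95% interval of the fold change excluded 0 for 11 members and stayed above -0.5 on the log2 scale for 74. A larger decrease than that lies outside the interval for these members, while a shift of the size of the median is little more than the standard error of a typical member (median 0.082).

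**Figure D2:**
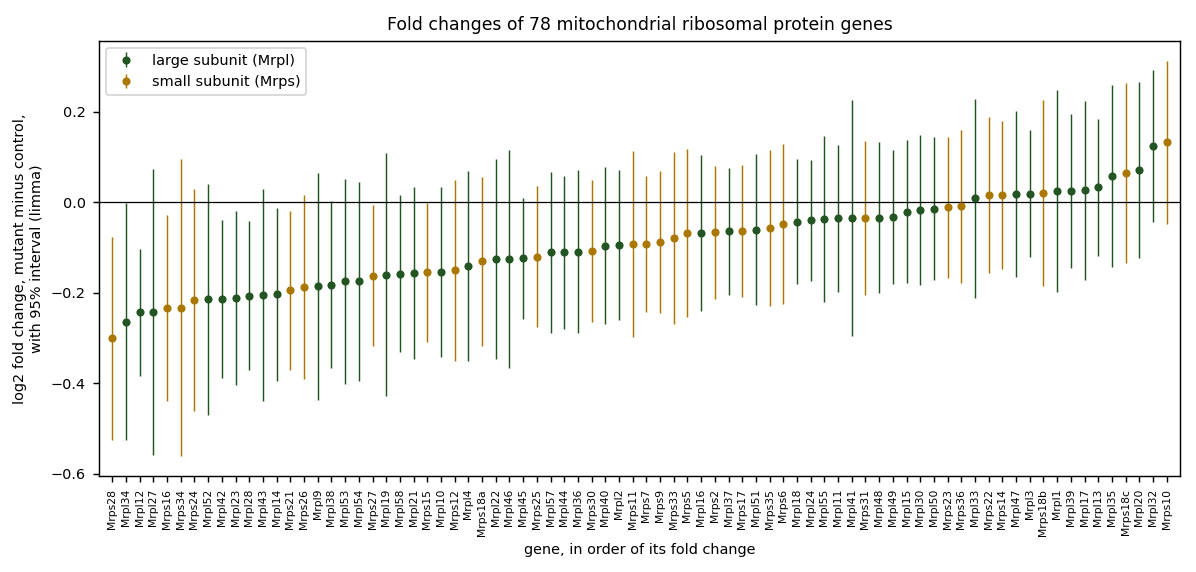
Log2 fold change (mutant minus control, vertical axis) with its 95% interval from limma for the 78 genes other than the pseudogene Mrps36-ps1, in ascending order, coloured by subunit. Points of both subunits lie on both sides of 0, and most points are below it, from -0.30 (Mrps28) to 0.13 (Mrps10).

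The count of lower members rested in part on control replicate 2, the shallowest library. Without it 2 members, Mrpl12 and Mrps28, remained at an unadjusted p under 0.05, which is 2.53% of the members against 4.59% of all genes in the same fit, so the share of lower members was no longer above that of all genes. The median was -0.06, with 63 of 79 members below 0. With counts scaled by the total alone, 58 members were below 0 with a median of -0.07 and 5 were lower, where 7.95% of all genes were higher and 5.07% lower. Among the other libraries, leaving out control replicate 3 left 5 lower members (6.33%, against 4.65% of all genes). Without mutant replicate 3 there were 6 (7.59% against 5.77%) and without mutant replicate 4 there were 4 (5.06% against 5.97%), shares near those of all genes. The share stayed above that of all genes without control replicate 1 (11 members, 13.9% against 6.28%) or control replicate 4 (13, 16.5% against 7.50%). The same held without mutant replicate 1 (14, 17.7% against 6.46%) or mutant replicate 2 (10, 12.7% against 5.46%).

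Both subunits had medians below 0. For the large subunit 39 of 49 genes were below 0, with a median of -0.10, and 6 genes were lower at an unadjusted p under 0.05. For the small subunit 25 of 30 genes were below 0, with a median of -0.08, and 5 genes were lower by the same measure. The lower genes were 12.2% of the large and 16.7% of the small subunit, against 6.62% of all genes. The difference between the mean of the large and of the small subunit genes within a library was between -0.026 and 0.049 on the log2 scale in all 8 libraries, which is less than the difference between the highest and the lowest library of either subunit. Some names do not match the structure, since the products of Mrps18a and Mrps30 sit in the large subunit and that of Mrps36 belongs to the oxoglutarate dehydrogenase complex. When the genes were sorted by structure, the median was -0.11 for 51 large subunit genes and -0.08 for 26 small subunit genes.

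The proteins can also be sorted by origin. Of 46 genes whose proteins descend from bacterial ribosomal proteins, 34 were below 0 with a median of -0.08. At an unadjusted p under 0.05, 9 of them (19.6%) were lower, against 6.62% of all genes. Of 31 genes for proteins found only in mitochondria, 28 were below 0 with a median of -0.11, and 2 (6.45%) were lower by that measure. With the trends of each library with GC content and exon length taken out, the order of these counts turned. Then 5 of the 46 genes of the bacterial class and 7 of the 31 of the mitochondrial class were lower, against 6.64% of all genes in that fit. The difference between these classes was not tested. By its spread over the 4 libraries of each group, the mean of the bacterial class was 0.043 ± 0.057 in control and -0.043 ± 0.034 in mutant libraries, and that of the mitochondrial class was 0.052 ± 0.069 and -0.052 ± 0.033 (centred log2 scale, SD, n = 4).

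The member with the smallest p was Mrpl12 (ENSMUSG00000039640, GRCm38 chr11:120484613-120489065, plus strand), the stalk protein that also had the highest CPM of all members. In the 4 control libraries, in the order of their replicate numbers, it had 101.3, 109.2, 107.5 and 94.3 CPM, and in the mutant libraries it had 87.4, 85.3, 87.8 and 87.0 CPM (further values keep this order). All mutant libraries were below all control libraries, and the 4 mutant values lay close together. The log2 fold change was -0.24 ± 0.065 (SE), a level 15.5% below control, with an adjusted p of 0.240 in limma. Over all alternatives the adjusted p ran from 0.033 in DESeq2 to 0.553. Mrpl10, the protein that anchors the stalk to the ribosome, had a log2 fold change of -0.15 ± 0.086 (SE) and overlapping groups, with 40.1 CPM in mutant replicate 2 and 46.9 ± 5.08 against 52.1 ± 3.004 CPM in mutant and control (SD, n = 4).

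Among the large subunit proteins of bacterial origin, Mrpl28 (chr17:26123500-26126613, plus strand) had 55.0, 63.1, 53.0 and 51.2 CPM in control and 49.6, 47.2, 48.1 and 46.9 CPM in mutant replicates. The groups did not overlap, and control replicate 2 was the highest library. The log2 fold change was -0.21 ± 0.076 (SE), with an adjusted p of 0.346 in limma. Mrpl14, which lies at the face towards the small subunit, had 19.1, 20.7, 22.3 and 19.1 CPM in control and 18.9, 17.0, 16.4 and 17.9 CPM in mutant replicates, also without overlap but with 0.217 CPM between the nearest libraries. Mrpl23, which sits at the exit of the peptide tunnel, had 26.4, 31.6, 29.8 and 28.6 CPM in control and 24.8, 24.6, 28.2 and 22.7 CPM in mutant replicates. Here mutant replicate 3 lay among the control libraries. Mrpl34 had the lowest fold change of the large subunit, -0.26 ± 0.12 (SE), with 29.1, 41.0, 33.5 and 26.2 CPM in control and 26.2, 24.8, 27.1 and 28.3 CPM in mutant replicates. Control replicates 2 and 3 were its highest libraries, and without control replicate 2 the log2 fold change was -0.15.

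Mrpl42, whose protein has no bacterial counterpart, had 80.9, 89.6, 80.1 and 68.2 CPM in control and 70.1, 68.5, 67.7 and 67.1 CPM in mutant replicates. Only control replicate 4 reached into the range of the mutant libraries. The log2 fold change was -0.21 ± 0.080 (SE), with an adjusted p of 0.354 in limma. Mrpl45, a mitochondrial protein by which the ribosome contacts the inner membrane, was without overlap although its p was above 0.05, with 50.5 to 53.2 CPM in control and 46.4 to 48.7 CPM in mutant libraries.

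In the small subunit the lowest fold change was that of Mrps28 (chr3:8802146-8923918, minus strand), with 17.0, 21.4, 19.3 and 18.1 CPM in control and 13.96, 17.5, 15.3 and 14.4 CPM in mutant replicates. Mutant replicate 2 lay above control replicate 1, and the other mutant libraries lay below all controls. The log2 fold change was -0.30 ± 0.103 (SE), a level 18.8% below control, with an adjusted p of 0.322 in limma. Mrps16, a protein of bacterial origin, had 27.8, 36.7, 33.0 and 28.9 CPM in control and 26.9, 27.5, 27.2 and 24.9 CPM in mutant replicates. Its groups did not overlap, with control replicate 1 just above mutant replicate 2. Mrps21 had 41.1, 46.8, 42.2 and 42.4 CPM in control and 41.4, 33.4, 37.8 and 38.0 CPM in mutant replicates, so that mutant replicate 1 was level with the controls. Mrps27, a protein of the RNA-binding pentatricopeptide repeat family, had 48.4 to 53.6 CPM in control and 41.4 to 47.9 CPM in mutant libraries, and Mrps15 had 33.4 to 37.2 and 30.5 to 33.2 CPM. Both were without overlap, with 0.424 and 0.184 CPM between the nearest libraries.

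**Figure D3:**
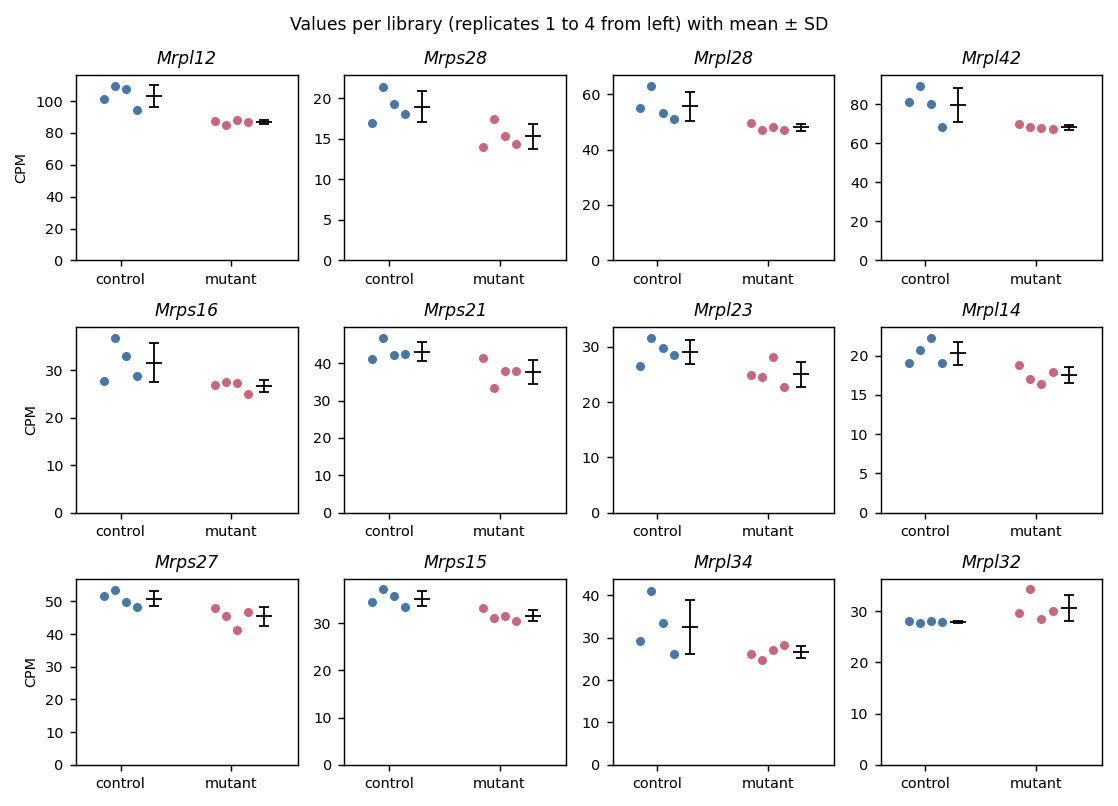
CPM per library for the 11 genes lower at an unadjusted p under 0.05, in order of p, and for Mrpl32, with replicates 1 to 4 from left to right in each group and mean ± SD (n = 4) in black. The 4 mutant libraries lie below the 4 controls for Mrpl12, from 85.3 to 87.8 against 94.3 to 109.2 CPM, and control replicate 2 is the highest library for 10 of the 11 lower genes.

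The exact permutation test over the 70 relabellings of 4 libraries against 4 can give no two-sided p under 0.029. It gave that value, unadjusted, for the 8 members whose groups did not overlap. For such members the lack of overlap fixes this p, so the test adds nothing to it. Of the 11 lower members, Mrpl12 and Mrps28 stayed at an unadjusted p under 0.05 in all 18 alternatives, Mrpl42 in 17, Mrpl28 in 16 and Mrps16 in 15. The other 6 did so in 6 to 12 of them, with Mrps15 the lowest at 6.

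The members with the highest fold changes were close to 0. Mrps10 had 24.0 to 27.5 CPM in control and 25.7 to 30.4 CPM in mutant libraries, a log2 fold change of 0.13 ± 0.083 (SE) with an adjusted p of 0.525 in limma. Mrpl32, a protein that the m-AAA protease of the inner membrane must cut before it joins the ribosome, had 28.0, 27.7, 28.1 and 27.9 CPM in control and 29.6, 34.2, 28.5 and 29.97 CPM in mutant replicates. All mutant libraries were above all controls, which were within 0.426 CPM of each other. The log2 fold change was 0.12 ± 0.077 (SE), with an adjusted p of 0.520 in limma, and 0.03 after the trends with GC content and length were taken out. Mrpl20 (0.07), Mrps18c (0.06), Mrpl35 (0.06) and Mrpl13 (0.03) followed, each with overlapping groups, and the last pair was below 0 after the trends with GC content and length were taken out.

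Promoters of members were examined for motifs of factors known to drive nuclear genes for mitochondria, in windows of 300 bases, 250 before and 50 after the start site, from RefSeq on GRCm38.p6. A promoter was found for 69 of the 79 members, 75 in all since some have more than 1. On either strand, the NRF1 motif GCATGCGC was in 10.7% of member promoters, against 4.89% of those of all genes in the table and 2.71% of all promoters. The ETS motif CCGGAAGT, to which GABP binds, was in 16%, against 7.50% and 3.89%. The YY1 motif AAGATGGC was in 16%, against 4.14% and 2.75%. The CCAAT box was in 40% of member promoters, against 37.7% of those of table genes. The GC box GGGCGG was less common in member promoters (52.0% against 61.7%). The share with the E-box CACGTG, bound by MYC proteins, was near that of table genes (9.33% against 9.80%). It was found for 5 of 69 members, of which Mrpl2 counts with several overlapping windows. These matches describe the letters of the windows, and occupancy was not measured. At least 1 of the NRF1, ETS and YY1 motifs was found for 29 members and all of them for 0. Of the 10 lower members with a promoter, 0 had the NRF1 motif, 1 had the ETS motif, 2 had the YY1 motif and 0 had the E-box.

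The promoters of 4 members are shown because their values stood at the ends of the comparison or because they carry the motifs in question, with NRF1, ETS and YY1 motifs in capitals. That of Mrpl12, the member with the smallest p, lies at chr11:120484387-120484686 on the plus strand and holds none of the motifs searched. That of Mrps27, lower without overlap, at chr13:99344536-99344835 on the plus strand, has the ETS motif 49 bases before the start site and the YY1 motif 15 bases after it. That of Mrpl42 at chr10:95501900-95502199 on the minus strand has the YY1 motif 28 bases after the start site. That of Mrpl32, higher without overlap, at chr13:14612988-14613287 on the minus strand, has 4 matches to the NRF1 motif, at 87, 85, 66 and 22 bases before the start site, of which the first pair overlap, and the YY1 motif at 242 bases before it.
Mrpl12: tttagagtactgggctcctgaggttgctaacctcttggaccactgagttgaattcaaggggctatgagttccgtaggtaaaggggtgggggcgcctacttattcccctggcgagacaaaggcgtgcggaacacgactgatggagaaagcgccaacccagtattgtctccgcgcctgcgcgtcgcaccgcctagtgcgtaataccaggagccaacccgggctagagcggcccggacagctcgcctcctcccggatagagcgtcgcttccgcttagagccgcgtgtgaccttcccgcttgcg
Mrps27: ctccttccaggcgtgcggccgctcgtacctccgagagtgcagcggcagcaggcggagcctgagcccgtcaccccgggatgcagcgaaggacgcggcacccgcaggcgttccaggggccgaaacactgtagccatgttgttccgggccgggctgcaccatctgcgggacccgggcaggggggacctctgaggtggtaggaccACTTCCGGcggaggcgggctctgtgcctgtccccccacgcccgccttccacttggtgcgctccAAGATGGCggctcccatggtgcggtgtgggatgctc
Mrpl42: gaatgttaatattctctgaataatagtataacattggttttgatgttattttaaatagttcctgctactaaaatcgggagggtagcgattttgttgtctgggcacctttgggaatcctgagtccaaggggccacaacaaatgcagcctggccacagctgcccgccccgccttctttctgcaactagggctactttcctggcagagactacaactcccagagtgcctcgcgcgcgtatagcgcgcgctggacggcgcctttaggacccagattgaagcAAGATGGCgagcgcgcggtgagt
Mrpl32: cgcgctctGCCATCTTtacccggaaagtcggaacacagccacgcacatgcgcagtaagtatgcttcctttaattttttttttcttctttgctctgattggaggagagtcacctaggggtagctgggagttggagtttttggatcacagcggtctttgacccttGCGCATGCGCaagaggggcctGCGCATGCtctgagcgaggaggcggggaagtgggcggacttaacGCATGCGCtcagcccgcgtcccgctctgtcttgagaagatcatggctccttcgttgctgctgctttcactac

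Several members are known from human disease or by their position in the ribosome. Log2 fold changes of those given here ran from -0.16 to 0.02, within the range of the whole family (-0.30 to 0.13, median -0.09). Mrpl3 (0.02 ± 0.064, SE), Mrpl44 (-0.11 ± 0.078) and Mrps22 (0.02 ± 0.079), whose human counterparts are mutated in cardiomyopathy, had overlapping groups and adjusted p of 0.916, 0.567 and 0.945 in limma. Mrpl40, which lies in the region deleted in human DiGeorge syndrome, a cause of outflow tract defects, had 27.2 to 31.2 CPM in control and 24.8 to 28.6 CPM in mutant libraries, with a log2 fold change of -0.10 ± 0.080 (SE). Mrps12, a protein of the decoding site, had -0.15 ± 0.092 (SE), and Mrps5 had -0.07 ± 0.085 (SE). Mrpl58, a peptidyl-tRNA hydrolase built into the large subunit, had -0.16 ± 0.080 (SE) with an adjusted p of 0.443 in limma. Of the genes whose names do not match the structure, Mrps18a had -0.13 ± 0.086 (SE), Mrps30 had -0.11 ± 0.072 (SE) and Mrps36 had -0.01 ± 0.078 (SE).

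**Figure D4:**
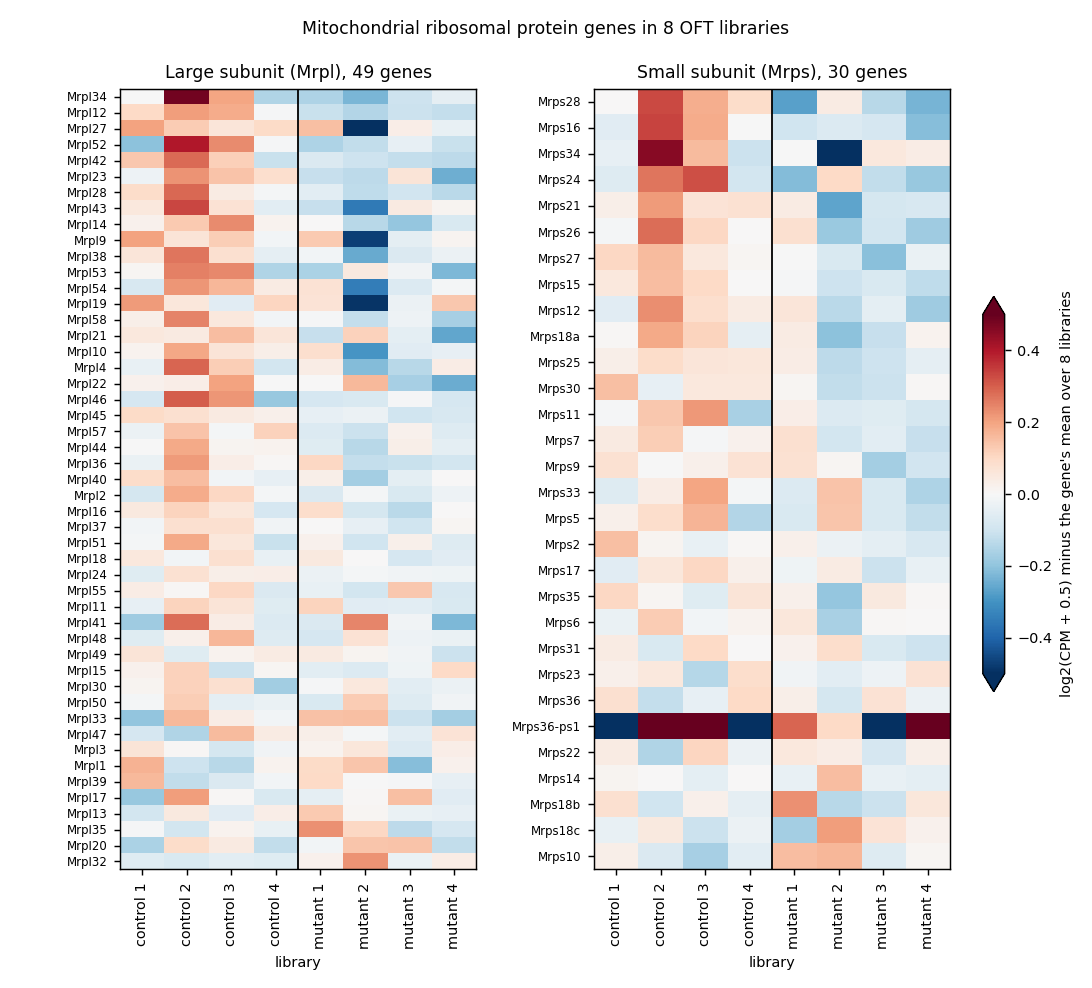
Deviation of each gene from its own mean over the 8 libraries (colour, on the scale of log2(CPM + 0.5), limited at 0.5) for the 49 large subunit genes (left) and the 30 small subunit genes (right), ordered by fold change from lowest at the top, with control and mutant libraries split by a black line. The column of control replicate 2 is the reddest, as the highest library of 40 of the 79 genes, and mutant replicate 2 is most often the lowest library, for 24.

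Libraries of the same group differed from each other in the mean of the members. This mean after centring each gene was 0.01, 0.14, 0.07 and -0.03 on the log2 scale in the control libraries and 0.00, -0.06, -0.07 and -0.06 in the mutant libraries, by replicate number. Control replicate 4 lay within the range of the mutant libraries, and mutant replicate 1 lay level with control replicate 1, so the groups overlapped. The highest library of a member was a control in 68 of 79 genes, most often control replicate 2, with 40, and for 10 of the 11 lower members it was this library. The lowest was a mutant library in 57, most often mutant replicate 2 (24) and mutant replicate 4 (18). Summed over the members, RNA for the mitochondrial ribosome came to 3009 ± 129 CPM in control and 2821 ± 59.2 CPM in mutant libraries (SD, n = 4). The coefficient of variation of a member over the 8 libraries was between 3.09% and 88.2%, the latter for the pseudogene, with a median of 8.35%.

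The libraries also differed in how their values followed the GC content of the genes. Control replicates 2 and 3 had slopes of 0.213 and 0.105 on the log2 scale per 10 percentage points of GC, mutant replicate 2 had -0.179, and the others were between -0.052 and 0.023. The libraries with the highest and the lowest slope are also those that were most often the highest and the lowest for a member. The median GC content was 49.7% for the members and 49.5% for all genes. The part of the slopes in the values of the members was not tested. With the trends of each library with GC content and exon length taken out, 68 of 79 members were below 0 with a median of -0.08, and 12 were lower and 0 higher at an unadjusted p under 0.05, against 6.64% and 4.89% of all genes in that fit. Of these 12, 5 were among the 11 above, namely Mrpl12, Mrps28, Mrpl42, Mrpl23 and Mrps16. The median was thus close to that without the correction, while most of the lower members were others.

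Cardiomyocyte markers were lower in the mutant libraries as well. All 10 (Tnnt2, Tnni1, Tnni3, Myh6, Myh7, Myl4, Myl7, Actc1, Ttn and Nppa) were below 0, with a median log2 fold change of -0.33. At an unadjusted p under 0.05, 9 of the 10 were lower, against 6.62% of all genes. Their summed level was 24770 to 29113 CPM in control and 19595 to 23363 CPM in mutant libraries, without overlap, and none of them was at 0 in any library. Of the other cell types, endothelial markers had a median of -0.10, smooth muscle and cushion mesenchyme markers 0.02 each, epicardial markers 0.10 and macrophage markers 0.09. Neural crest and neuronal markers had a median of 0.05. Single markers lay far from these medians. Endothelial markers ran from -0.57 (Emcn) to 0.11 (Tek) and smooth muscle markers from -0.05 (Cnn1) to 0.78 (Myh11). Neural crest and neuronal markers ran from -0.43 (Sox10) to 0.65 (Elavl4). Erythroid markers had a median of 0.22, with all 7 above 0, and their mean varied widely between libraries of a group, from -0.64 to 0.18 in control and from -0.95 to 0.76 in mutant libraries on the centred log2 scale. The part of the cell type content of the libraries, cardiomyocytes and blood included, in the values of the mitochondrial ribosome was not tested.

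The rest of the mitochondrial translation machinery was read from lists of its parts. Of 5 subunits with other names, 4 were below 0, with a median of -0.14. The lowest was Gadd45gip1, a large subunit protein at the tunnel exit, with 34.4, 47.9, 41.7 and 35.1 CPM in control and 33.8, 27.0, 34.3 and 31.3 CPM in mutant replicates. Its groups did not overlap, and its log2 fold change was -0.32 ± 0.115 (SE) with an adjusted p of 0.333 in limma. Aurkaip1, a small subunit protein, had -0.21 ± 0.104 (SE). Of 26 assembly factors 18 were below 0, with a median of -0.07, and 1, Mpv17l2, was lower at an unadjusted p under 0.05 (-0.33 ± 0.133, SE). That is 3.85% of the list, against 6.62% of all genes. Mterf3, an assembly factor of the MTERF family, had 0.17 ± 0.081 (SE).

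Of 16 translation factors and related proteins 15 were in the table and 11 were below 0, with a median of -0.11. At an unadjusted p under 0.05, 4 (26.7%) were lower and 1 (6.67%) was higher, against 6.62% and 5.45% of all genes. Tufm, the mitochondrial elongation factor Tu, had 142.9, 143.0, 132.8 and 125.7 CPM in control and 130.5, 94.3, 112.3 and 121.3 CPM in mutant replicates, a log2 fold change of -0.26 ± 0.094 (SE). Mutant replicate 1 was above control replicate 4, and mutant replicate 2 was the lowest library. Oxa1l, the insertase that receives proteins from the mitochondrial ribosome, had 79.7 to 90.3 CPM in control and 72.2 to 77.7 CPM in mutant libraries, without overlap (-0.17 ± 0.065, SE, adjusted p = 0.362 in limma). Of 20 mitochondrial tRNA synthetases and related enzymes 16 were below 0, with a median of -0.10. At an unadjusted p under 0.05, Aars2 (-0.23 ± 0.089, SE) and Gatb (-0.20 ± 0.083) were lower and Hars2 (0.20 ± 0.091) was higher. Lower and higher genes were 10% and 5% of this list, against 6.62% and 5.45% of all genes.

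Genes for the upkeep and transcription of mtDNA had a median of 0.07, with 4 of 11 below 0, and the median was 0.00 after the trends with GC content and length were taken out and 0.03 without control replicate 2. Polrmt, the mitochondrial RNA polymerase, had -0.21 ± 0.113 (SE), and Mterf1a, at 3.13 to 5.335 CPM over all libraries, had 0.36 ± 0.140 (SE). Of the 15 RNAs encoded by mtDNA, 5 were below 0 and the median was 0.06. The ribosomal RNAs mt-Rnr1 and mt-Rnr2, with which the proteins form the ribosome, had 0.15 ± 0.134 and 0.07 ± 0.108 (SE), but most of this RNA is lost in a library made from polyadenylated RNA. The smallest p in this list belonged to mt-Atp6 (0.47 ± 0.157, SE, adjusted p = 0.316 in limma) and mt-Nd6 (-0.30 ± 0.124, SE, adjusted p = 0.391). After the trends with GC content and length were taken out, 10 of the 15 were below 0 and the median was -0.09, so the sign of this list depends on the correction.

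Among 13 regulators of nuclear genes for mitochondria, 8 were below 0, with a median of -0.05. Of the 13, 3 were lower without overlap, where 3.9% of all genes were. Mycn, a MYC family factor that drives growth, had 55.0, 66.9, 58.2 and 55.8 CPM in control and 49.3, 45.6, 43.3 and 42.0 CPM in mutant replicates, a log2 fold change of -0.38 ± 0.082 (SE). The groups were well apart, with an adjusted p of 0.195 in limma, 0.012 in the likelihood ratio test and 0.0045 in DESeq2. Ppargc1b, a coactivator of mitochondrial genes, had 17.2, 15.8, 16.01 and 12.1 CPM in control and 11.8, 9.49, 11.2 and 10.1 CPM in mutant replicates, a log2 fold change of -0.50 ± 0.121 (SE). Its adjusted p was 0.228 in limma, 0.040 in the likelihood ratio test and 0.023 in DESeq2. Esrra, the receptor through which such coactivators act, had -0.41 ± 0.11 (SE), with an adjusted p of 0.240 in limma, 0.062 in the likelihood ratio test and 0.038 in DESeq2. Their relatives on the list had overlapping groups, namely Myc (0.05 ± 0.093, SE), Ppargc1a (-0.15 ± 0.128), Pprc1 (-0.05 ± 0.103) and Esrrg (-0.11 ± 0.092). Nrf1 (0.06 ± 0.074, SE), Gabpa (0.17 ± 0.089) and Yy1 (-0.02 ± 0.058), whose motifs were searched in the promoters of Mrps27, Mrpl42, Mrpl32 and the other members, had overlapping groups.

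The respiratory complex that holds most products of the mitochondrial ribosome is complex I. Of 50 genes named for it (Nduf, subunits, assembly factors and a few gene copies), 46 were below 0 with a median of -0.20. At an unadjusted p under 0.05, 23 (46%) were lower, against 6.62% of all genes. The groups did not overlap for 14 of the 50, all of them lower, where 3.9% of all genes did so. At an adjusted p under 0.05, limma called 0 (smallest adjusted p = 0.214), the likelihood ratio test 0 and DESeq2 4, against 0%, 0.732% and 1.54% of all genes. Their mean over genes was 0.00 to 0.15 on the centred log2 scale in control and -0.12 to -0.06 in mutant libraries, without overlap, while the means of the members overlapped. Without control replicate 2 the median of complex I was -0.17. Of 113 genes named for the cytosolic ribosome, pseudogenes and paralogs included, 75 were below 0 with a median of -0.03. At an unadjusted p under 0.05, 3 (2.65%) were higher and 6 (5.31%) lower, against 5.45% and 6.62% of all genes. The mean of the fold changes of these 113 genes had the other sign, 0.07. Differences between these lists were not tested.

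**Figure D5:**
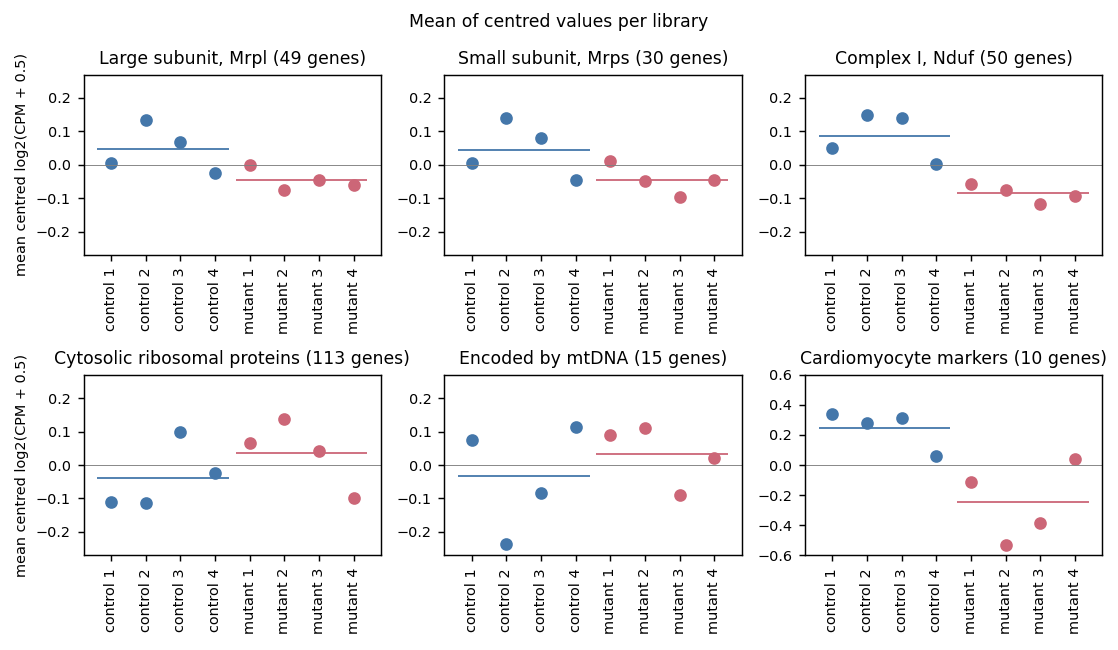
Mean over the genes of a list of log2(CPM + 0.5) after centring each gene on its mean over 8 libraries (vertical axis), for each library, with the group means as lines, and with a wider vertical axis for cardiomyocyte markers. Large and small subunit follow each other from library to library, with control replicate 2 highest at 0.13 and 0.14, and the groups overlap in both, while those of complex I do not.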

How the data were processed

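RNA of pooled OFT was made into polyadenylated, strand-specific libraries. Per the labels and the study's methods, the authors trimmed adapters with cutadapt, quantified reads with RSEM on GRCm38, kept genes with at least 1 CPM in at least 3 samples and normalized with edgeR. The deposited CPM values are reads scaled to library size times the edgeR factor, and 0 columns were left out. All values of the 8 columns were whole multiples of 1 read (within 0.001 read), which gave the reads used by edgeR and DESeq2. Since the values are CPM, log2(CPM + 0.5) was tested with limma 3.58.1 (eBayes with a trend, Benjamini-Hochberg over 14608 genes, R 4.3.3), and edgeR 4.0.16 and DESeq2 1.42.0 served as alternatives. Fold changes are on the log2(CPM + 0.5) scale and understate changes of low genes. Fits were tested on simulated data. The log2(CPM + 0.5) values of a gene were centred on its mean over libraries before means over lists were taken. Exon lengths and positions came from GENCODE on GRCm38.

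Groups follow the sample labels. Members, gene lists and motifs were chosen with earlier results of these data known. Genes were named by a rule: members past the threshold in any tool, the 6 smallest p in each direction, the 3 highest and 3 lowest levels, 12 members by name, and up to 2 genes with the smallest p from each list, with the other genes lower at an unadjusted p under 0.05, those without overlap, and a few regulators and ribosomal RNAs named after their values were seen. The p-values measure the spread between these pooled libraries. The libraries were not treated as paired by replicate number. The correlation of deviations was -0.185 to 0.035 for libraries of the same number and -0.220 to 0.248 for the others. These values showed no pairing by number, but with 4 libraries a group they cannot exclude one. Between replicates the chi-square per gene was 6.67 to 33.7, so no library repeats another. Alternatives were other pseudocounts (0.1 and 2), a minimum mean of 5 CPM, the replicate block, other tools and scalings, removal of trends with GC content and length, and leaving out each library.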

Additional observations from a re-analysis of the deposited data

Results flagged for a closer look

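Of 142 groups of 4 libraries examined, 6 held a library whose distance to the nearest other, as a share of the range of its group, was over Dixon's 95% limit, which chance alone passes in about 5% of groups. Mrpl44 was at 31.4 CPM in control replicate 2, against 27.5 to 27.8 CPM in the other controls. Mrps5 was at 64.2 CPM in mutant replicate 2, against 53.5 to 55.2 CPM in the other mutant libraries. Oxa1l was at 72.2 CPM in mutant replicate 3, against 77.4 to 77.7 CPM. The mean of all members on the centred log2 scale was 0.0039 in mutant replicate 1, against -0.065 to -0.056 in the other mutant libraries. The same mean was -0.15 in mutant replicate 1 for cushion mesenchyme markers, against 0.079 to 0.11, and 0.064 in control replicate 1 for smooth muscle markers, against -0.15 to -0.14.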

How the results depend on the processing

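In no alternative was a member higher at an unadjusted p under 0.05, and between 58 and 69 of 79 members were below 0. The median log2 fold change was -0.11 to -0.06 for the large subunit and -0.11 to -0.06 for the small subunit. The number of genes called was 0 in limma and in the quasi-likelihood test, 107 in the likelihood ratio test and 194 in DESeq2, and the number of members called was 1 in DESeq2 and 0 elsewhere. The number of lower members at an unadjusted p under 0.05 (11) was 7 with the replicate block, 5 with total-count scaling, which moved the median of all genes to 0.022, and 2 to 14 when a library was left out, with 2 without control replicate 2. No adjusted call changed with the replicate block. A direction turned for members near 0. With the GC and length trends removed Mrpl35 was at -0.017, Mrpl13 at -0.068 and Mrpl3 at -0.031, and Mrps36-ps1 was at 0.29 with a pseudocount of 0.1. With total-count scaling Mrps36-ps1 was at 0.0040 and Mrps36 at 0.012. When a library was left out, the range was -0.0082 to 0.11 for Mrpl35, -0.0051 to 0.055 for Mrpl13, -0.0081 to 0.045 for Mrpl3, -0.032 to 0.054 for Mrps22, -0.48 to 0.45 for Mrps36-ps1 and -0.050 to 0.022 for Mrps36. The cause of these changes was not tested. The other 34 of 40 named genes kept their direction in every alternative. With 4 libraries a group and a median standard error of 0.082, a shift of the size of the median cannot be called for a single gene.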
